A study of Homo sapiens with 10 samples.

Results

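The replication-dependent histone genes are the large family that supplies the core and linker histones of newly made chromatin. Members were taken as the protein-coding genes of GENCODE release 44 on chromosomes 1 and 6 whose symbol starts with H1-, H2AC, H2BC, H3C or H4C, which gave 68 of 20033 protein-coding genes. The choice used names and positions and no measured value, but it was made with earlier results of these data known. H3K27ac and H3K18ac, acetylation of histone H3 at lysine 27 and at lysine 18, were measured by ChIP-Seq in a pair of prostate cancer cell lines. C4-2B is a castration-resistant adenocarcinoma line, and C4-2BER is the enzalutamide-resistant, NE-like line derived from it and kept in the drug. Cells of both lines were fixed with DSG and formaldehyde, and each mark had 2 libraries per line beside 1 input library per line, so the marks are described in 1 line of each kind.

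The libraries of a mark and line were merged by the authors before peaks were called, so each of the 4 peak lists is 1 pooled measurement. No value below has a replicate error, and no test between the lines or marks could be made. Every difference is a description of these pools, set beside the same quantity over all protein-coding genes where that quantity is given. The lists hold no read counts, and the depth behind them is unknown. Each gene was given the fold enrichment, a linear ratio of ChIP signal to local background, of the strongest peak that reached within 1000 bp of its canonical transcription start site (TSS). For these broad peaks the fold is an average over the whole peak, and it is relative to a background set separately in each list. In a pool of cells, fewer cells with the mark and less of the mark per cell cannot be told apart.

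Histone genes of this class are short, mostly lack introns and are read out in S phase, when replicating DNA has to be packed. Their transcripts end in a stem-loop in place of a poly(A) tail, and NPAT, a coactivator driven by cyclin E and CDK2, gathers at the gene clusters with the factors that process the transcripts. Acetylation of H3 at both lysines is found at active promoters and enhancers.

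The members fell into 5 clusters when a gap of 500 kb was taken as the border. On chromosome 6 (GRCh38) the first cluster held 34 members from H2AC1 to H4C8 (TSS positions chr6:25726562-26285534), the second held 5 from H2BC11 to H2AC12 (chr6:27132795-27147106) and the third held 16 from H2BC13 to H2BC17 (chr6:27807929-27893425). On chromosome 1 the fourth held 11 from H2BC18 to H2AC21 (chr1:149812370-149887965), and the fifth was the pair H2AC25 and H2BC26 (chr1:228457873-228458103). By family there were 6 linker histone (H1), 17 H2A, 18 H2B, 13 H3 and 14 H4 genes. Their annotated coding sequences translate to 6 different H1, 11 H2A, 14 H2B, 2 H3 and 2 H4 proteins. The 13 H3 genes thus code for 1 protein in 10 cases and for another at H3C13, H3C14 and H3C15, while 13 of the 14 H4 genes code for the same protein and H4C7 for a shorter one.

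The labelled cell types were checked at the promoters of 8 luminal and 6 neuroendocrine markers. All 8 luminal markers had a peak in all 4 lists. KLK3, which codes for prostate-specific antigen, had an H3K27ac fold of 20.3 in C4-2B and 13.8 in C4-2BER and an H3K18ac fold of 7.06 and 7.28. HOXB13, a homeobox factor of the prostate, had an H3K27ac fold of 23.5 and 19.8. Of the neuroendocrine markers, CHGA (chromogranin A), INSM1 and NCAM1 had no H3K27ac peak in either line. ENO2, neuron-specific enolase, stood at 4.00 in C4-2B and 7.30 in C4-2BER, and SYP, the vesicle protein synaptophysin, at 8.16 and 5.67. All 6 had an H3K18ac peak in both lines, with a median fold of 2.80 in C4-2B and 2.87 in C4-2BER. The C4-2BER lists therefore kept the luminal markers, and 3 of the 6 neuroendocrine markers had no H3K27ac peak at their TSS.

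To see how much of the gene family carried the marks, the presence of a peak was counted first. An H3K27ac peak was present at 50 of the 68 members in C4-2B, against 69.1% of all protein-coding genes, and at 49 in C4-2BER, against 69.6%. H3K18ac was found at 63 members in C4-2B, against 83.8%, and at 57 in C4-2BER, against 81.1%. As shares, 73.5% and 72.1% of members carried H3K27ac and 92.6% and 83.8% carried H3K18ac, so presence lay close to the genome-wide level except for H3K18ac in C4-2B, where it was higher. A peak in all 4 lists was found at 46 members, beside 66.4% of all genes.

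**Figure D1:**
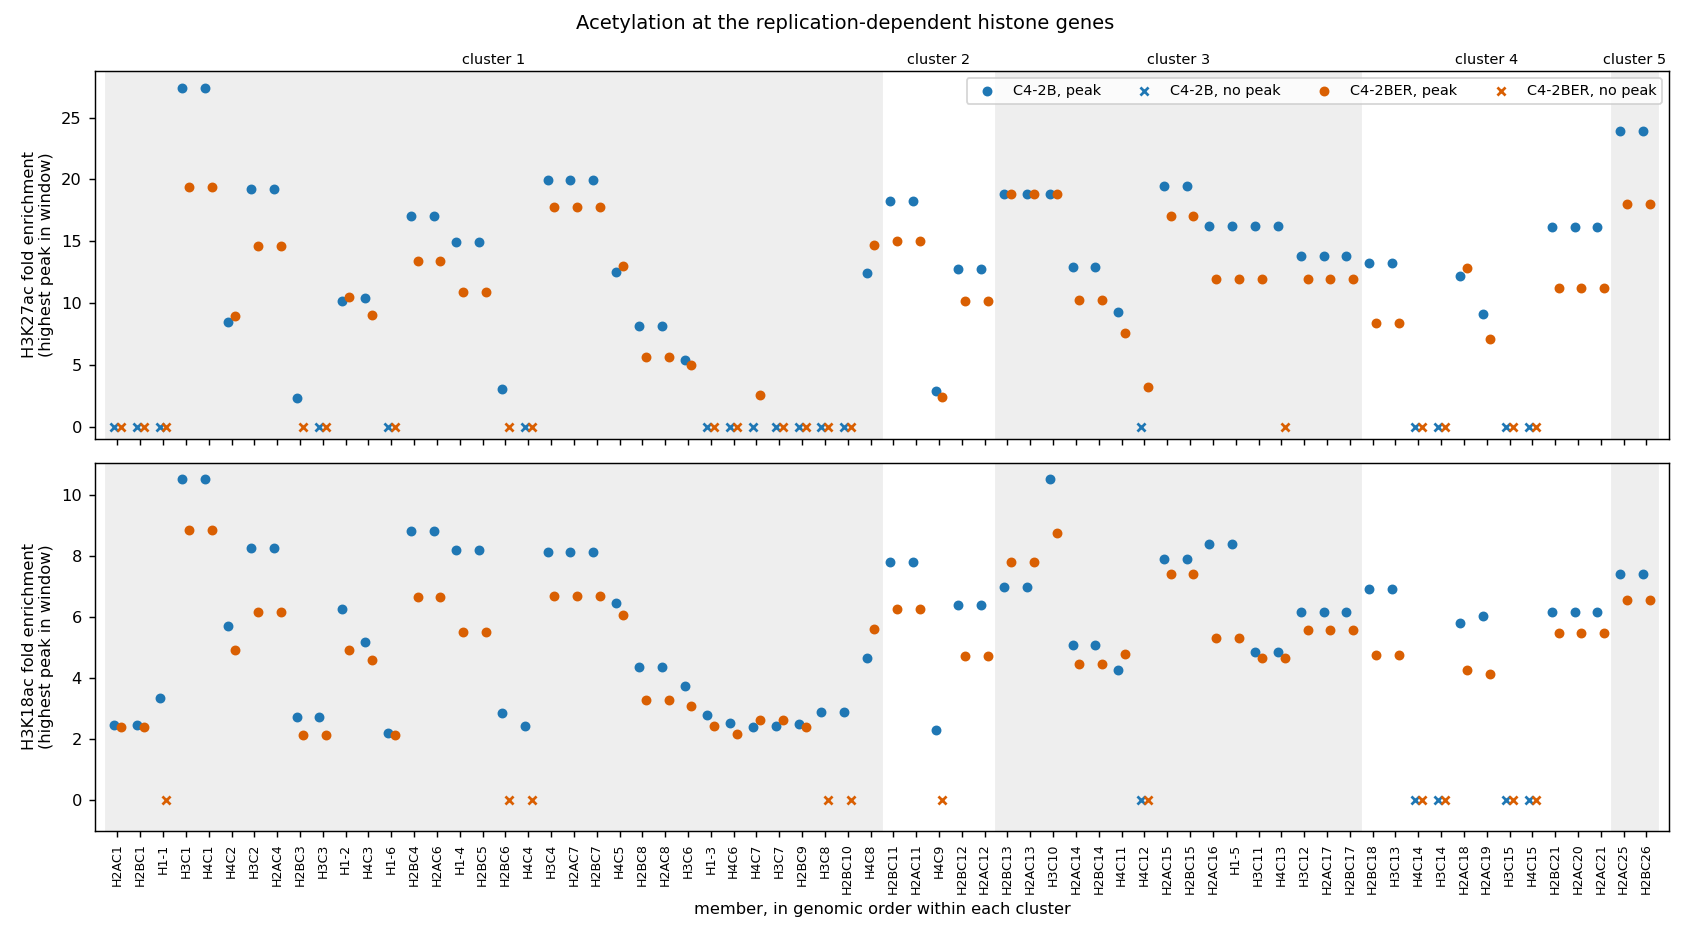
Highest fold enrichment (vertical axes, linear) within 1000 bp of the TSS for each of the 68 members in genomic order, H3K27ac above and H3K18ac below, with C4-2B in blue, C4-2BER in orange and crosses at 0 for members without a peak. Grey and white bands separate the 5 clusters. Most members sit between 5 and 20 for H3K27ac, and a run without H3K27ac lies near the end of cluster 1.

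Presence was then counted by family and cluster, beside the 69.1% and 69.6% of all genes with H3K27ac. H2A genes, which code for a core histone of the nucleosome's outer dimers, had an H3K27ac peak at 16 of 17 members in each line, and their partners of the H2B family at 15 and 13 of 18. H3 genes had one at 8 of 13 in each line, H4 genes at 8 and 9 of 14 and H1 genes at 3 of 6. Without the 4 members whose windows are wholly repeated elsewhere in the genome, described below, the H3 genes came to 8 of 11 in each line and the H4 genes to 8 and 9 of 12. In cluster 1 H3K27ac reached 21 of 34 members in C4-2B and 20 in C4-2BER, while H3K18ac reached 34 and 29. In clusters 2 and 5 every member had an H3K27ac peak in both lines, and cluster 3 had one at 15 of its 16 members in each line. Cluster 4 had peaks of both marks at 7 of 11 members in all 4 lists.

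The 4 members of cluster 4 without a peak in any list were H4C14, H3C14, H3C15 and H4C15. They were the only such members, against 13.9% of all protein-coding genes. Each window was built wholly of 50-base words that occur elsewhere in the genome (100%). The H4C14 window is identical to that of H4C15 over 2001 bases, and the H3C14 window to that of H3C15 when the latter start is shifted by 4 bases. The authors removed alignments of low mapping quality, so whether these 4 genes carry the marks cannot be read from the lists, and it was not tested. The neighbours H2AC18 and H2AC19, whose windows share 92.0% of bases, had 87.8% and 87.7% of such words. Their peaks lay beside the TSS and not over it, the nearest base being 531 to 582 bp away. H2AC18 had an H3K27ac fold of 12.2 in C4-2B and 12.8 in C4-2BER, and H2AC19 had 9.11 and 7.10. Of the 19 members with over 10% of repeated words, 15 had a peak in at least 1 list, and all 20 members with none had one.

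Apart from those 4, 12 members had H3K18ac in 1 or both lines and H3K27ac in neither. Over all protein-coding genes this pattern was found at 14.3%. All 12 were in cluster 1. The H3K18ac at these 12 was low. In C4-2B it ran from 2.21 to 3.35, with a median of 2.52, against a median of 6.90 and a range of 2.30 to 10.5 at the 47 members with H3K27ac in both lines. In C4-2BER only 8 of the 12 kept a peak, from 2.13 to 2.63 with a median of 2.40, against 5.54 over the 46 members that had H3K27ac in both lines and a C4-2BER H3K18ac peak. The ranges did not overlap in C4-2BER and overlapped in C4-2B through H4C9, which had H3K27ac in both lines and an H3K18ac fold of 2.30. The H3K18ac fold over all genes with this pattern was not taken, so low values are not shown to be particular to these members. H1-8, H2BW1, H3-4 and H3-5, histone genes outside the members with only H3K18ac, had 2.13 to 2.92.

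H2AC1, H2BC1 and H1-6, members known for their expression in male germ cells, were among these 12. H2AC1 and H2BC1, a divergent pair at the start of cluster 1, shared an H3K18ac peak of 2.48 in C4-2B and 2.40 in C4-2BER, and the nearest H3K27ac peak was 24157 bp or more away from either TSS. H1-6, the testis linker histone, had the lowest H3K18ac of all members with 2.21 and 2.13. Of the others, H1-1, a linker histone, had H3K18ac in C4-2B alone at 3.35, while its neighbour H3C1 had the highest H3K27ac of all members. H3C3 shared a weak H3K18ac peak with H2BC3, at 2.71 and 2.13, and H4C4 had one in C4-2B alone at 2.42.

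The remaining 6 lay in an uninterrupted stretch together with H4C7. From H1-3 to H2BC10, over 39.9 kb (chr6:26233987-26273931), 7 members followed each other with no H3K27ac peak in C4-2B and 2 weak ones in C4-2BER, of 2.22 and 2.59. The higher of these lay within 1000 bp of H4C7, the gene of the shorter H4 protein. H3K18ac peaks covered 25.2% of the stretch in C4-2B and 20.1% in C4-2BER, with 8 peaks in each line and none above 2.88. H1-3, a linker histone, had H3K18ac of 2.78 and 2.42. H4C6 had 2.53 and 2.17, and H3C7 had 2.43 and 2.63. H3C8 and H2BC10 shared a peak of 2.88 in C4-2B and had none in C4-2BER. At both ends the marks returned. H3C6 on one side had H3K27ac of 5.42 and 4.98, and H4C8 on the other had 12.4 and 14.7. The stretch was picked out after its values were seen.

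**Figure D2:**
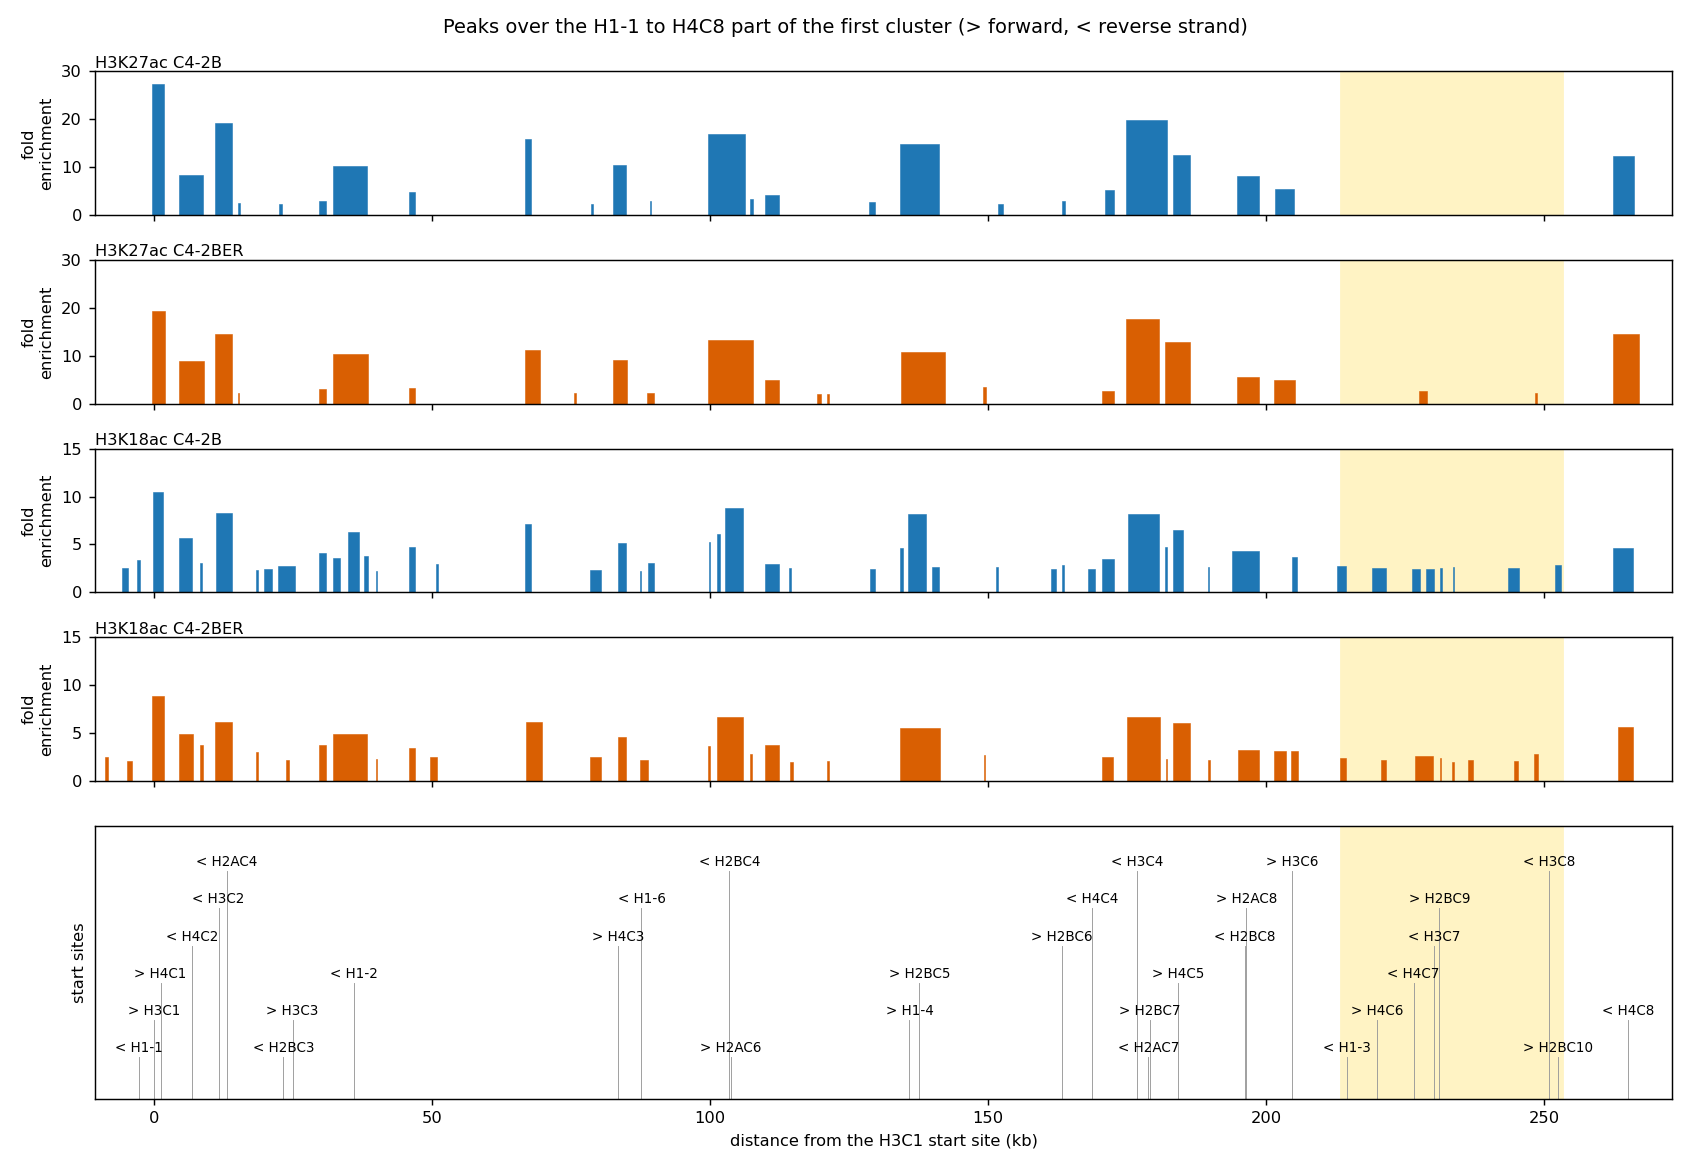
Peaks of the 4 lists from H1-1 to H4C8, drawn to scale as distance from the H3C1 TSS in kb (horizontal axis). The height of each bar is the fold enrichment of the peak (axes from 0), the lowest track gives the TSS of each member with its strand, and the shaded stretch from H1-3 to H2BC10 holds no H3K27ac peak in C4-2B.

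A further 5 members had H3K27ac in 1 line, and most of these values were at the bottom of the range. H2BC3 had 2.29 and H2BC6 3.02 in C4-2B alone. H4C7 had 2.59 and H4C12 3.20 in C4-2BER alone, and H4C12 had no H3K18ac peak in either list. H4C13 stood at 16.2 in C4-2B, because a peak of 11502 bp shared with H2AC16, H1-5 and H3C11 covered its TSS. In C4-2BER the corresponding peak was 8348 bp wide and ended 1001 bp from the TSS of H4C13, 1 base outside the window, so the loss at H4C13 rests on the window. H4C9, in cluster 2, kept weak H3K27ac in both lines, at 2.87 and 2.38, and had H3K18ac in C4-2B alone, at 2.30.

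The strongest member promoters belonged to the core histones, which make up all members but the 6 H1 genes. H3C1 and H4C1 lay under 1 peak in each list. They had an H3K27ac fold of 27.4 in C4-2B and 19.4 in C4-2BER, and an H3K18ac fold of 10.5 and 8.85. In C4-2B 84.8% of all genes with an H3K27ac peak lay below this value, and in C4-2BER 91.1% did. H2AC25 and H2BC26, the pair that forms cluster 5, had 23.9 and 18.01 for H3K27ac and 7.41 and 6.56 for H3K18ac. H3C4, H2AC7 and H2BC7 shared a peak of 19.9 and 17.8 for H3K27ac and of 8.13 and 6.69 for H3K18ac. H3C10 had the highest H3K18ac in C4-2B, at 10.5, with 8.73 in C4-2BER. Its H3K27ac, at 18.8 in both lines, came from a peak that it shared with H2BC13 and H2AC13. The divergent pair H2BC4 and H2AC6 was also high in H3K18ac, at 8.80 and 6.65, with H3K27ac of 17.0 and 13.4. H3C1, H4C1 and H3C10 thus led H3K18ac in both lines, and H3C1 and H4C1 led H3K27ac in both.

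Over the members with a peak, the median H3K27ac fold was 15.6 in C4-2B (50 members, range 2.29 to 27.4) and 11.9 in C4-2BER (49 members, 2.38 to 19.4). Over all protein-coding genes with a peak it was 18.2 and 12.4. H3K18ac had a median of 6.14 in C4-2B (63 members, 2.21 to 10.5) and 5.30 in C4-2BER (57 members, 2.13 to 8.85), against 7.00 and 5.59 over all genes. A value above that of the median gene was found at 16 of 50 and 21 of 49 members for H3K27ac, and at 20 of 63 and 20 of 57 for H3K18ac. By family, the median H3K27ac fold in C4-2B was 17.5 for H3, 16.2 for H2A, 14.9 for H2B, 14.9 for H1 and 11.4 for H4. In C4-2BER the order was H3 at 13.3, H2A at 12.4, H2B at 11.9, H1 at 10.9 and H4 at 8.95. The H4 genes spread from 2.87 to 27.4 in C4-2B, which takes in nearly the whole range of the members.

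Linker histone genes formed 3 marked and 3 weakly marked loci. H1-2 had H3K27ac of 10.2 and 10.5 and H3K18ac of 6.26 and 4.90. H1-4 had 14.9 and 10.9 for H3K27ac and 8.18 and 5.51 for H3K18ac. H1-5 had 16.2 and 12.0 for H3K27ac and 8.37 and 5.30 for H3K18ac. H1-1, H1-3 and H1-6 had no H3K27ac peak in either line, as described above.

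Neighbouring members often lay under a single peak. The 50 members with H3K27ac in C4-2B were covered by 28 different peaks and the 49 in C4-2BER also by 28, while H3K18ac at 63 and 57 members came from 40 and 34 peaks. A peak shared with the window of another protein-coding gene was found at 38 of 50 and 37 of 49 members for H3K27ac, against 24.2% and 25.2% of all genes with a peak, and at 43 of 63 and 43 of 57 for H3K18ac, against 21.5% and 21.4%. Values of members on 1 peak are therefore 1 measurement. The sharing followed the layout of the genes. There were 12 divergent pairs, all made of an H2A and an H2B gene with TSSs 194 to 251 bp apart, and both genes of a pair lay on the same H3K27ac peak in 11 pairs and on the same H3K18ac peak in 12 pairs in each line. Members of pairs had H3K27ac in 22 of 24 cases in each line, on 11 peaks, with a median fold of 17.0 in C4-2B and 13.4 in C4-2BER. The other 44 members had it in 28 and 27 cases, with medians of 13.5 and 11.2. Setting aside the 4 genes with wholly repeated windows leaves 28 and 27 of 40. Pairs hold only H2A and H2B genes while the other members take in all families, and pairing and family were not separated here.

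Peaks at members were mostly wide, except for the H3K18ac peaks of members alone on their peak. For H3K27ac the median width was 4546.5 bp in C4-2B (range 426 to 11502) and 4699 bp in C4-2BER (262 to 9865), against 2359 and 2829 bp over all protein-coding genes with a peak. For H3K18ac it was 2839 bp (218 to 5650) and 3129 bp (256 to 7065), against 2269 and 2448 bp. A peak wider than that of the median gene was found at 41 of 50 and 42 of 49 members for H3K27ac and at 37 of 63 and 41 of 57 for H3K18ac, beside 50% of all genes by construction. Members that shared a peak had wider ones. Members alone on their H3K27ac peak had a median of 3111 bp in C4-2B and 3462 bp in C4-2BER, and members that shared it had 4685 and 5248 bp. Over all genes the corresponding medians were 2128 and 2530 bp alone and 3245.5 and 4077.5 bp shared. For H3K18ac members alone on their peak had narrower peaks than other such genes, with medians of 1344.5 and 1267.5 bp against 2147 and 2353 bp, and sharing members wider ones, with 3284 and 3752 bp against 2744 and 2836 bp.

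**Figure D3:**
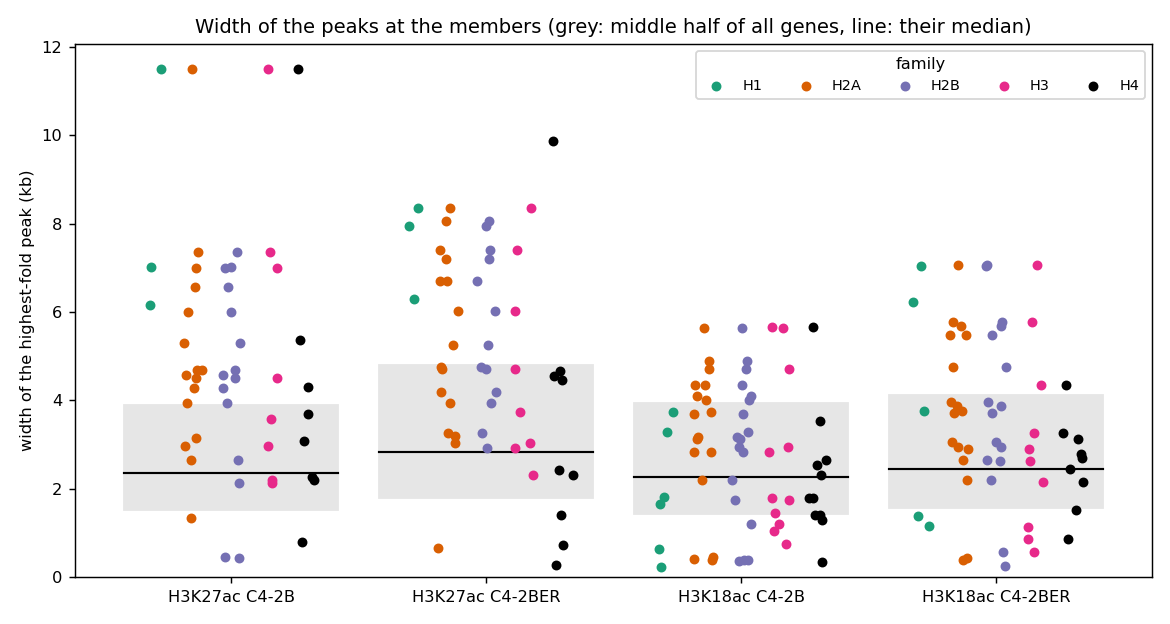
Width in kb (vertical axis) of the highest-fold peak at each member, by list (horizontal axis) and family (colours), 1 point per member. Grey boxes give the range between the 25th and 75th percentile of all protein-coding genes with a peak and black lines their median. For H3K27ac most members lie above the lines at 2.36 and 2.83 kb.

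The lines were then compared at each member. For H3K27ac 2 members were increased in C4-2BER, with a peak there alone or a fold at least 2 times as high, and 3 were decreased, out of 52 with a peak in either line. Over all genes 4.61% were increased and 11.2% decreased. For H3K18ac none of 63 members was increased and 6 were decreased, against 2.44% and 7.14% of all genes. All of these calls were of presence in 1 line, and no member with a peak in both lines changed by as much as 2 times. The increased members were H4C7 and H4C12, and the decreased ones H2BC3, H2BC6 and H4C13. For H3K18ac the decreased members were H1-1, H2BC6, H4C4, H3C8, H2BC10 and H4C9, whose C4-2B folds of 2.30 to 3.35 lay at the low end of the list.

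Most members with a peak in both lines had a lower fold in C4-2BER, as did most genes. Over the 47 members with H3K27ac in both lines the log2 ratio of C4-2BER to C4-2B had a median of -0.33 (95% order-statistic interval -0.40 to -0.21) and over the 57 with H3K18ac in both a median of -0.23 (-0.32 to -0.17). These intervals cover the spread over members only, and members on 1 peak count more than once in them. Over all protein-coding genes with a peak in both lines the medians were -0.51 and -0.34. The median fold over all peaks of a list, at genes or not, lay closer together. It was 3.47 in C4-2B and 3.31 in C4-2BER for H3K27ac, and 2.74 and 2.55 for H3K18ac. The fold was higher in C4-2BER at 8 of 47 members for H3K27ac, against 11.8% of all genes, and at 6 of 57 for H3K18ac, against 14.2%. Relative to the median gene the direction turned. The centred median was 0.18 for H3K27ac and 0.11 for H3K18ac, and 40 of 47 and 38 of 57 members lay above the median ratio of all genes, beside 50% of genes by construction. With centring the members increased and decreased stayed at 2 and 3 for H3K27ac and 0 and 6 for H3K18ac, while all genes came to 6.54% and 3.77% for H3K27ac and 2.8% and 5.6% for H3K18ac.

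**Figure D4:**
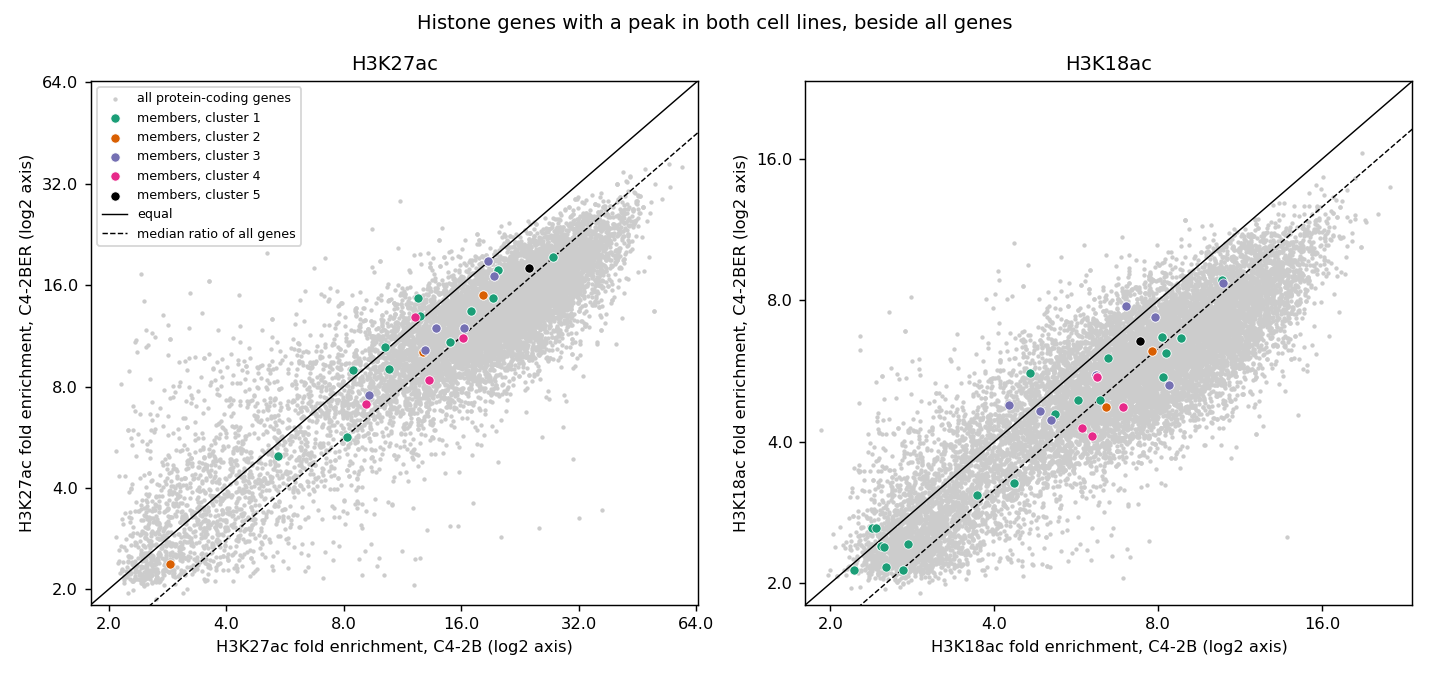
Fold enrichment in C4-2B (horizontal axis, log2 scale) against C4-2BER (vertical axis, log2 scale) for members with a peak in both lines, coloured by cluster, over all protein-coding genes in grey, H3K27ac on the left and H3K18ac on the right. Of the 47 members with H3K27ac, 40 lie above the dashed line of the median gene, and 8 above the solid line of equal values.

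H4C8, which codes for the common H4 protein, had the largest rise in both marks. Its H3K27ac fold went from 12.4 to 14.7 (log2 ratio 0.24) and its H3K18ac fold from 4.65 to 5.61 (0.27). H4C2 had 8.43 and 8.95 for H3K27ac (0.09), and H2AC18 had 12.2 and 12.8 (0.07). For H3K18ac, H4C11 had 4.26 and 4.79 (0.17), and H2BC13 and H2AC13 had 6.99 and 7.79 (0.16) under a shared peak. H3K27ac at H2BC13 and H2AC13 was 18.8 in both lines. All of these rises were small beside a ratio of 2.

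The largest falls in H3K27ac were at H2BC18 and H3C13, which shared a peak of 13.2 in C4-2B and 8.37 in C4-2BER (log2 ratio -0.66). H2BC21, H2AC20 and H2AC21, under a single peak, had 16.2 and 11.2 (-0.53). All 5 are in cluster 4 on chromosome 1, whose 7 members with a peak had log2 ratios with a median of -0.53 in H3K27ac and -0.44 in H3K18ac. Clusters 1, 2, 3 and 5 had -0.34, -0.28, -0.21 and -0.41 for H3K27ac and -0.27, -0.38, -0.14 and -0.18 for H3K18ac. Over all protein-coding genes the medians were -0.51 for H3K27ac, close to that of cluster 4, and -0.34 for H3K18ac. For H3K18ac the largest falls were at H2AC16 and H1-5, from 8.37 to 5.30 (-0.66), and at H1-4 and H2BC5, from 8.18 to 5.51 (-0.57). The share of repeated words in these windows varied, from 64.0% at H2BC18 and 73.7% at H3C13 to 14.4% at H2BC21, 14.8% at H2AC20 and 5.84% at H2AC21. H2AC18 and H2AC19 of the same cluster, at 87.8% and 87.7%, had H3K27ac ratios of 0.07 and -0.36. The part of repeated words in the ratios was not tested.

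To show what the promoters share, the 250 bases before the TSS were taken from RefSeq (GRCh38.p14) for 63 of the 68 members. H2AC12, H3C11, H3C12, H4C1 and H4C3 were not matched, and H3C4 and H3C6 were left out because the RefSeq start lay 2007 and 957 bp from the canonical TSS. The 3 motifs searched on both strands were the octamer ATTTGCAT, which POU2F1 binds, the CCAAT box CCAAT, which the NFYA, NFYB and NFYC complex binds, and the TATA box TATAAA. No match of 1 motif overlapped a match of another. The octamer was found in 25 of 61 member promoters, against 1.66% of 15345 promoters of protein-coding genes. A CCAAT box was found in 52 of 61, against 34.8%, and a TATA box in 40 of 61, against 9.23%.

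The motifs differed by family. The octamer was in 14 of 18 H2B and 11 of 16 H2A promoters and in none of the 6 H1, 9 H3 and 12 H4 promoters. In H2B promoters its first base lay a median of 49 bases before the start, and in H2A promoters 192. The windows of divergent partners overlap, so 8 octamers lay in the promoters of both genes of a pair, and the 25 promoters rested on 17 sites. In the same way the 140 CCAAT matches were 103 sites and the 57 TATA matches 44 sites. All H1, H2A, H2B and H3 promoters held a CCAAT box, and 3 of 12 H4 promoters did. The TATA box was present in 3 of 6 H1, 12 of 16 H2A, 12 of 18 H2B, 7 of 9 H3 and 6 of 12 H4 promoters. Within 50 bases of the start it was found in 3 H1, 11 H2A, 8 H2B, 7 H3 and 6 H4 promoters, and the matches in H2B promoters lay a median of 205 bases before the start. Among the 40 promoters with H3K27ac in both lines 19 held the octamer, 36 a CCAAT box and 27 a TATA box. Among the 16 with H3K27ac in neither line, of which 4 have wholly repeated windows, these numbers were 4, 13 and 8. The 4 with the octamer, H2AC1, H2BC1, H2BC9 and H2BC10, were the only H2A or H2B promoters among these 16. The groups thus differ in family, and the counts do not compare promoters within a family. The part of family in these numbers was not tested.

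**Figure D5:**
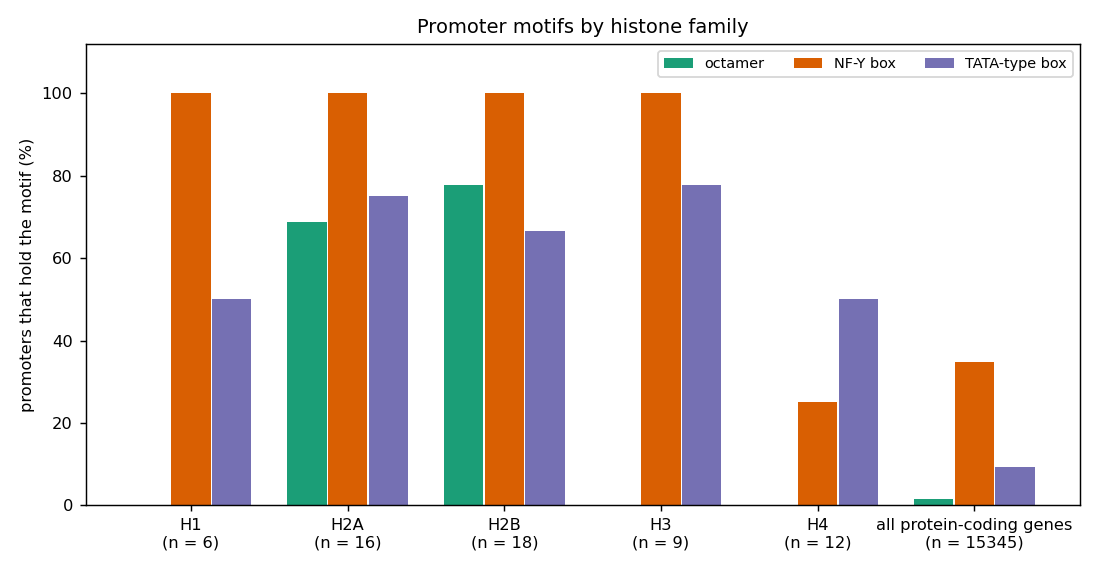
Share in % (vertical axis) of promoters whose 250 bases before the start hold each motif, for the 5 families and all protein-coding genes (horizontal axis, number of promoters in brackets). The NF-Y box is the CCAAT box and the TATA-type box the TATA box. The octamer bars stand at 68.8% for H2A and 77.8% for H2B.

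The 4 promoters printed here set strongly marked members beside members of the same family without H3K27ac, to show where the searched letters lie in each. H2BC26 (chr1:228457853-228458102, plus strand) and H4C8 (chr6:26285535-26285784, minus strand) had the highest sum of the H3K27ac folds of both lines among the H2B and the H4 genes with a RefSeq promoter here, at 41.9 and 27.1. In single lines the order differed. H2BC13 was above H2BC26 in C4-2BER, and H4C13 and H4C5 were above H4C8 in C4-2B. H2BC10 (chr6:26272681-26272930, plus strand) and H4C6 (chr6:26240143-26240392, plus strand) lie in the stretch without H3K27ac in C4-2B and were picked after their values were seen. Capitals mark matches to the 3 motifs on either strand.
H2BC26: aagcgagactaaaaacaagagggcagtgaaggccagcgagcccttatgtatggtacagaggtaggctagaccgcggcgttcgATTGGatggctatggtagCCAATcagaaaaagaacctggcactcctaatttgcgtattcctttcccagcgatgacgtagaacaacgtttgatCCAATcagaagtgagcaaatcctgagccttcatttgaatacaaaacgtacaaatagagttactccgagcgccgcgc
H2BC10: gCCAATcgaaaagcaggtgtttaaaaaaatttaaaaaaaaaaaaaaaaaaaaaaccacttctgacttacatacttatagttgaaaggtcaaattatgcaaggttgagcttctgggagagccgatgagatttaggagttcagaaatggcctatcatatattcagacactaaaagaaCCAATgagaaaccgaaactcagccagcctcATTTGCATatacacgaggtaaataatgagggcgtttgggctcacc
H4C8: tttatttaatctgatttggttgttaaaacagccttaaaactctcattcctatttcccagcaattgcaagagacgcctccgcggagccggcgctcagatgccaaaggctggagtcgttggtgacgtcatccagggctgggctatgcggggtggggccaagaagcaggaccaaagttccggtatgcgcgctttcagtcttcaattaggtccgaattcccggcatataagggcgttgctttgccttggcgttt
H4C6: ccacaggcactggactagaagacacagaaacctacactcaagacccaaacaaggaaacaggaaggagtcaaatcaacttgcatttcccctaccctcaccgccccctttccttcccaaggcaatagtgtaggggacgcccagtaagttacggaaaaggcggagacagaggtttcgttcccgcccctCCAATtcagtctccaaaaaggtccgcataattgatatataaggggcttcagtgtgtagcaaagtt
H2BC26, at 23.9 and 18.01 for H3K27ac, held 3 CCAAT boxes and no exact octamer or TATA box. H2BC10, with H3K18ac of 2.88 in C4-2B and no other peak, held the octamer 45 bases before its start and 2 CCAAT boxes. H4C8 held none of the 3 motifs, and H4C6 held a CCAAT box 65 bases before its start. The CCAAT box thus occurred on both sides of this choice, and a missing match says only that the letters are not in the window.

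Base composition was also compared. The 2001 bases around the TSS had a median GC content of 48.9% over the members (range 40.1 to 64.1%) and 56.0% over all protein-coding genes. The 12 members with H3K18ac and no H3K27ac had a median of 47.3%, and the 47 with H3K27ac in both lines 49.2%. The part of GC content in the fold was not tested.

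Factors that drive or process histone transcripts were set beside the genes themselves. All 21 genes of this list had a peak in all 4 lists, with a median H3K27ac fold of 20.6 in C4-2B and 13.1 in C4-2BER and a median H3K18ac fold of 8.51 and 6.09. NPAT, the coactivator of the clusters, had 15.5 and 12.5 for H3K27ac and 6.03 and 5.15 for H3K18ac. SLBP, which binds the stem-loop of the transcripts, had 23.2 and 13.1 for H3K27ac and 9.39 and 5.78 for H3K18ac. CDK2, the kinase that works with cyclin E, had H3K27ac of 21.2 and 10.3 (log2 ratio -1.04) and H3K18ac of 8.37 and 5.01. It was the only gene of the list decreased, in H3K27ac and just past the limit of 2 times. Over all genes with a peak in either line 11.2% were decreased in H3K27ac and 7.14% in H3K18ac. None of the 21 was increased, against 4.61% and 2.44% of such genes. The median log2 ratio of the 21 stood at -0.60 in H3K27ac and -0.44 in H3K18ac. It was -0.51 and -0.34 over all protein-coding genes and -0.33 and -0.23 for the members.

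Histone genes with other symbols, which mostly code for replication-independent variants, had H3K27ac at 12 of 17 in C4-2B and 11 of 17 in C4-2BER and H3K18ac at 16 of 17 in each. H3-3A, a gene of the variant H3.3, had the highest H3K27ac of them in C4-2B, at 30.1, with 17.4 in C4-2BER. H2AZ1, which codes for the variant H2A.Z, had 24.2 and 18.4. H1-8, H2BW1, H3-4 and H3-5 had only H3K18ac, at 2.13 to 2.92, and H2AB1 had no peak. H1-7, a linker histone of the testis, had H3K27ac of 2.43 in C4-2B alone and H3K18ac of 4.27 and 2.70. These 6 genes had the lowest values of the list.

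Of the genes lying within the clusters that are not members, 7 were in cluster 1 and none in the others. SLC17A1, SLC17A3 and SLC17A4, which code for phosphate transporters, had no peak in any list, and SLC17A2 had H3K27ac of 3.62 in C4-2B alone. HFE, the iron regulator altered in haemochromatosis, had H3K27ac of 15.8 and 11.2 and H3K18ac of 7.16 and 6.16. TRIM38, a ubiquitin ligase, had H3K27ac of 7.73 and 8.15 and H3K18ac of 4.42 and 4.37. The seventh, known only by its gene ID, starts at the TSS of H2AC7 and shares its values. Peaks of H3K27ac covered 12.2% of cluster 1 in C4-2B and 13.5% in C4-2BER, against 60.9% and 60.8% of cluster 2 and 45.5% and 43.2% of cluster 3. Cluster 4, which holds the 4 wholly repeated windows, was covered at 14.0% and 16.6%, and the short cluster 5 at 94.6% and 100%.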

How the data were processed

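The authors aligned the ChIP-Seq reads to GRCh38 with Bowtie2 (the submitters' processing notes name version 2.2.3, the study's methods another), removed blacklisted regions, duplicates and alignments of low mapping quality, merged the libraries of each mark and line, and called broad peaks with macs2. How the input libraries entered the calls is not given in the sources used here. The deposited lists give for each peak a fold enrichment, a ratio to local background, and a −log10 q-value, and both were used as deposited. No read counts or single libraries were analysed here.

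A peak was assigned to a gene when it reached within 1000 bp of the Ensembl canonical TSS in GENCODE release 44. Peaks of a list did not overlap each other, and all lay within the GRCh38 chromosomes. Repeated sequence was counted as 50-base words of the window found elsewhere in the genome on either strand. Increased meant a peak in C4-2BER alone or a fold at least 2 times that of C4-2B, and decreased the mirrored case. Intervals of medians are 95% order-statistic intervals. The members and lists were chosen with earlier results of these data known. Named members were the 2 highest and 2 lowest of each list, those without any peak and the 3 largest rises and falls of each mark, and all others were picked with the values in view. The assignment and the calls were tested on simulated data. The scripts ran under Python 3.11.15 (pandas 2.3.3, numpy 2.4.6, numba 0.67.0, scipy 1.17.1, matplotlib 3.10.9). Single values of some marker genes are not reported here.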

Additional observations from a re-analysis of the deposited data

How the results depend on the processing

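The 14 summary values were recomputed under 10 other settings, and 106 of 120 values kept their direction and stayed within 1.5 times the count or within the interval of the median. Centring on the median of all genes turned the median log2 ratio to 0.18 for H3K27ac and 0.11 for H3K18ac. Counting each peak once gave a median H3K27ac fold of 12.8 in C4-2B. The counts of members called rest on few weak peaks. H3K27ac increases, 2 as reported, were 1 with a window of 500 bp, 4 with 2000 bp, 1 without members of repeated sequence and 0 with only peaks over the TSS, with a fold minimum of 4 or a −log10 q-value minimum of 5. H3K27ac decreases, 3 as reported, were 1 under the fold minimum and 1 under the q-value minimum. H3K18ac increases, 0 as reported, were 3 with only peaks over the TSS, and decreases, 6 as reported, were 2 under the fold minimum and 0 under the q-value minimum. For these counts the cause was not tested beyond the setting itself. No paired analysis was possible because the lists were made from merged libraries. The depth is unknown, so the absence of a peak does not show that the mark is absent.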

Other observations

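The clusters also hold 12 annotated histone pseudogenes, which belong in no comparison above. All 12 had an H3K18ac peak within 1000 bp of their start in C4-2B and 10 in C4-2BER, while 7 and 6 had H3K27ac. Over all protein-coding genes these shares were 83.8% and 81.1% for H3K18ac and 69.1% and 69.6% for H3K27ac. Most lie near a member and have the values of its peak, and 4 lie over 2000 bp from any. Of these, H2BC2P and H2AC2P shared an H3K18ac peak of 2.42 in C4-2B and 2.55 in C4-2BER, and H2AC3P, 135392 bp from the nearest member, had one of 3.02 in C4-2B alone. H3C5P, 2124 bp from H2AC8, had H3K27ac of 8.17 and 5.66, the value of the peak at H2AC8 and H2BC8.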
